A study of Homo sapiens with 2 samples.

Results

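The 10 genes described here are LY6K, RNF212, PRAME, DDX43, BRDT, SYCP3, ATAD2, PBK, TTK and SPAG5, out of 33538 genes counted in the Ewing sarcoma lines CHLA9 and TC71. They are known as cancer-testis antigens or germline-type genes, and they were chosen for their on/off pattern in each line, their share of positive cells and their co-detection, so those values are given as a description, with no test. Ewing sarcoma is a bone and soft tissue tumour driven by a fusion of EWSR1 with an ETS gene. The series profiled cultured Ewing lines cell by cell in 10X Genomics droplets, where each captured transcript end is counted by its unique molecular identifier (UMI), and 1 library of each of these lines was analysed. The medium of CHLA9 was IMDM with 20% serum and 1% insulin-transferrin-selenite, and that of TC71 was RPMI-1640 with 10% serum. The paper's methods state that the CHLA9 library was sequenced again on a NovaSeq, and name no such run for TC71. Line, medium, library and sequencing therefore cannot be told apart. No p-value is given between the lines, and every interval is a 95% interval for counting error alone.

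A barcode counted as a cell from 5000 UMIs and 2000 genes upward, if no more than 15% of its UMIs were mitochondrial. This left 4524 of 5077 CHLA9 barcodes, with a median of 34656 UMIs and 6532 genes, and 1729 of 8468 TC71 barcodes, with a median of 33370 UMIs and 6047 genes. Their summed depth was 174975302 UMIs for CHLA9 and 58355173 for TC71. Of 18 Ewing sarcoma markers, 15 were on in CHLA9 and 16 in TC71, and of 36 genes of other tissues none was on in either line. CD99, a surface antigen used in diagnosis, stood at 1141 CPM in CHLA9 and 402 CPM in TC71. Of the listed markers of germ cells and sperm, DDX4, DAZL, PRM1, PRM2 and TNP1 had 0 UMIs in the kept cells of both lines. The others were counted at low levels. SYCP1 had 43 UMIs in CHLA9 and 74 in TC71 (0.246 and 1.27 CPM), PIWIL1 25 and 4, and MAEL 7 and 1. The libraries shared 16 barcodes, of which 3 were kept in both.

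Cancer-testis genes are transcribed in the testis, and mostly silent in adult somatic tissue, where DNA methylation of CpG-rich promoters is a main means of keeping them off. They are known for turning on again in tumours, where some of their products are seen by T cells. The 10 genes fall into a pair of kinds. LY6K, RNF212, PRAME, DDX43, BRDT and SYCP3 are largely germline-restricted, while ATAD2, PBK, TTK and SPAG5 are testis-rich but also serve chromatin, spindle or checkpoint functions in any dividing cell.

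Levels are given as summed UMIs per 1000000 UMIs of the kept cells (CPM), and shares of positive cells as the percent of cells with at least 1 UMI. To compare shares between cells of unlike depth, each cell was also thinned to 10000 UMIs, which left 4510 CHLA9 and 1670 TC71 cells. A gene was called on in a line when at least 10% of thinned cells were positive, and off when under 1% were. By these limits 4 patterns were seen. LY6K and RNF212 were on in TC71 and off in CHLA9. PRAME was on in both lines and higher in CHLA9. DDX43, BRDT and SYCP3 were off in both, and ATAD2, PBK, TTK and SPAG5 were on in both. The on/off pattern of LY6K and RNF212 was a rare one: 1.03% of the 23998 genes with a UMI were on in 1 line and off in the other, in either direction. Of the 9077 genes on in at least 1 line these were 2.73%, of which 1.89% were on in TC71 and 0.837% on in CHLA9. The members nearest the limits were SPAG5 in TC71, at 19.04% of thinned cells, and SYCP3 in TC71, at 0.240%.

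**Figure D1:**
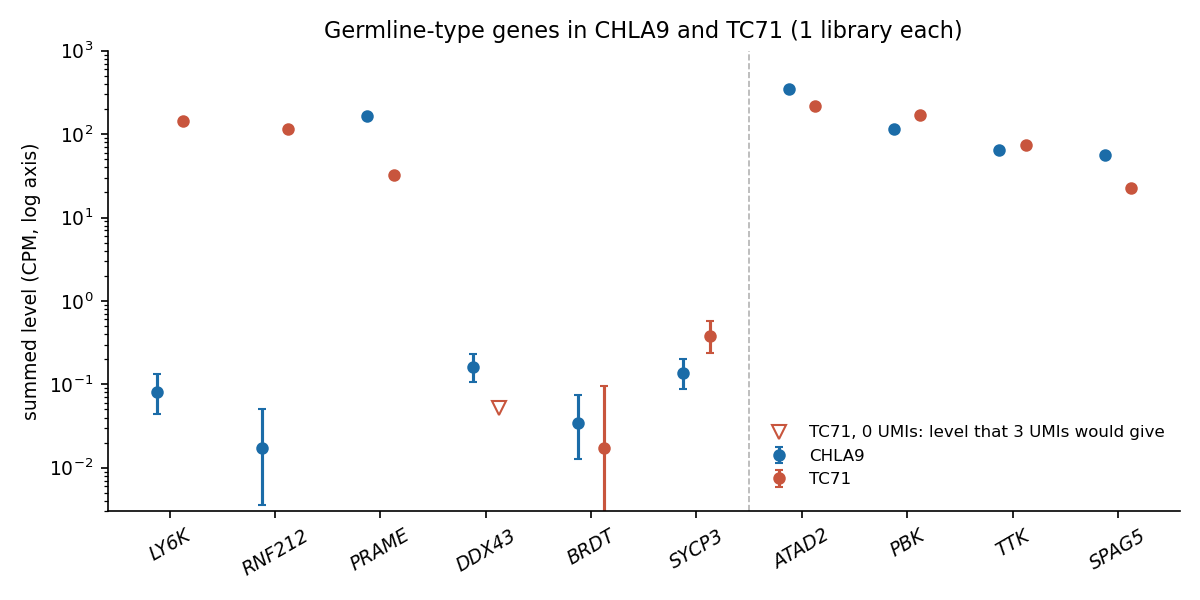
Summed level of each member in the kept cells of each line, in CPM on a log axis, with exact Poisson intervals. LY6K and RNF212 lie over 3 decades apart between the lines, and the 4 members to the right of the dashed line lie within a factor of 3. DDX43 had 0 UMIs in TC71, and the open triangle marks the level that 3 UMIs would give.

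Promoter sequence was looked at for RNF212, DDX43 and SPAG5, which stand for the 3 kinds of pattern of a gene on in TC71 alone, off in both lines and on in both. The stretches below are the 150 bases before each start in RefSeq on GRCh38.p14, read on the gene's strand, with every CpG in capitals, since the CpG is where such promoters are methylated. A lone capital at an end belongs to a CpG that runs past it. They lie at chr4:1113565-1113714 on the minus strand, chr6:73394678-73394827 on the plus strand and chr17:28599026-28599175 on the minus strand. Methylation was not measured.

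RNF212: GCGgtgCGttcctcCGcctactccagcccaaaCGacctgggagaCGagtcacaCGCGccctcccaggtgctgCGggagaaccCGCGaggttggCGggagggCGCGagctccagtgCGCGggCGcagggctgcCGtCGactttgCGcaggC

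DDX43: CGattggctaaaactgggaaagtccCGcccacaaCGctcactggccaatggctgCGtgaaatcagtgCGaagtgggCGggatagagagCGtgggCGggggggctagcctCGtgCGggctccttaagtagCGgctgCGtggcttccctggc

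SPAG5: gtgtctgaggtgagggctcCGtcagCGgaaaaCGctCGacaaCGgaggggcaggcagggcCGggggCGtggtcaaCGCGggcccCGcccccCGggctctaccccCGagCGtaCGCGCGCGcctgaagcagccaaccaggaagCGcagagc

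All 3 stretches are CpG-rich, with 19 CpGs in RNF212, 12 in DDX43 and 18 in SPAG5. Over the whole promoter window of 300 bases (250 before the start and 50 after), RNF212 held 34 CpGs, more than 84.4% of the 35116 RefSeq promoter entries, SPAG5 held 29 and DDX43 held 21. The median entry held 14, with quartiles at 4 and 28. Among the other members in the table, SYCP3 held 24, the 2 overlapping entries of BRDT 21 and 23, and the 3 entries of PRAME 13, 12 and 4. A CpG count above the median entry was thus seen in members of all 3 patterns, and PRAME, which was on in both lines, had the fewest. RNF212 and SPAG5 lay above the upper quartile of 28, while DDX43, BRDT and SYCP3, off in both lines, lay within the quartiles. LY6K, ATAD2, PBK and TTK had no entry.

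LY6K encodes a small GPI-anchored surface protein of the LY6 family with a role in sperm migration. In TC71 it was counted with 8352 UMIs, or 143 CPM (140 to 146), and 93.2% of cells were positive (91.9 to 94.3), with a median of 4 UMIs a cell. In CHLA9 it was counted with 14 UMIs, 1 each in 14 of 4524 cells, or 0.0800 CPM (0.0437 to 0.134). TC71 was thus 1789-fold higher, with an interval from 1066 to 3273. After thinning, 71.4% of TC71 cells and 0.0887% of CHLA9 cells were positive. None of the 14 CHLA9 cells carried a barcode that was also in the TC71 library.

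RNF212, a RING-finger protein that marks and stabilises future crossover sites in meiosis, showed the widest gap. It was counted with 6720 UMIs in TC71, or 115 CPM (112 to 118), in 93.6% of cells. In CHLA9 there were 3 UMIs in 2 cells, or 0.0171 CPM (0.00354 to 0.0501). The ratio was 6717-fold, with a counting interval from 2297 to 32577. After thinning, 66.8% of TC71 cells were positive (64.4 to 69.0), and 0 of 4510 CHLA9 cells were, which allows a share of up to 0.0665% by the limit of 3 counts.

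Both genes were thus detected in over 93% of TC71 cells. Thinned TC71 cells held a mean of 1.44 LY6K UMIs, and a Poisson distribution of that mean would leave 76.4% positive against 71.4% observed. The variance was 1.246 times the mean for LY6K and 1.10 times for RNF212, where 69.0% would be positive against 66.8% observed. At full depth 118 cells had no LY6K UMI where 53.7 were expected from each cell's total, and 110 had no RNF212 UMI where 86.4 were expected. The cells without LY6K were shallower, with a median of 23817 UMIs against 33767 in the positive cells. The 6739 TC71 barcodes that the limits removed had a median of 1269 UMIs and held LY6K at 123 CPM (118 to 129) and RNF212 at 100.5 CPM (95.8 to 105). How much of the UMIs in kept cells is free RNA of the suspension was not tested. The 553 barcodes removed from CHLA9 held 0 UMIs of either gene.

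**Figure D2:**
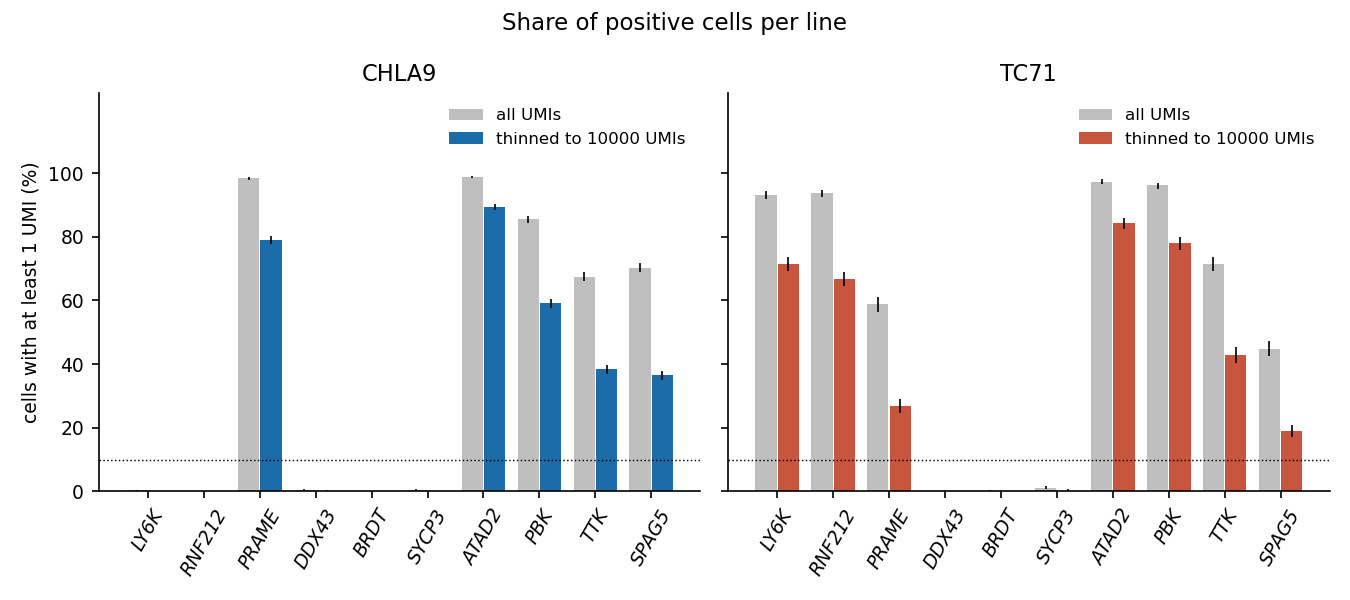
Percent of cells with at least 1 UMI of each member in CHLA9 (left) and TC71 (right), at full depth (grey) and after thinning each cell to 10000 UMIs (coloured), with exact Clopper-Pearson intervals. The dotted line is the limit of 10% for on. DDX43, BRDT and SYCP3 sit at the base of both panels, and LY6K and RNF212 at that of CHLA9 alone.

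PRAME, which binds the retinoic acid receptor and serves a cullin ubiquitin ligase, was on in both lines at unlike levels. CHLA9 held 28564 UMIs, or 163 CPM (161 to 165), with 98.3% of cells positive and a median of 6 UMIs a cell. TC71 held 1899 UMIs, or 32.5 CPM (31.1 to 34.0), with 58.8% positive and a median of 1. CHLA9 was 5.02-fold higher (4.79 to 5.26). After thinning, 79.0% of CHLA9 cells and 26.8% of TC71 cells were positive, where Poisson distributions of the same means would give 81.0% and 28.3%. The most that a thinned TC71 cell held was 4 UMIs, in 6 cells or 0.359%, where the Poisson distribution gives 0.0367%. RARA, the receptor PRAME binds, was higher in CHLA9, at 34.5 against 5.06 CPM. The listed ligase genes were closer between CHLA9 and TC71, with CUL2 at 51.0 and 58.6 CPM, ELOB at 224 and 242, and ELOC at 282 and 257.

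**Figure D3:**
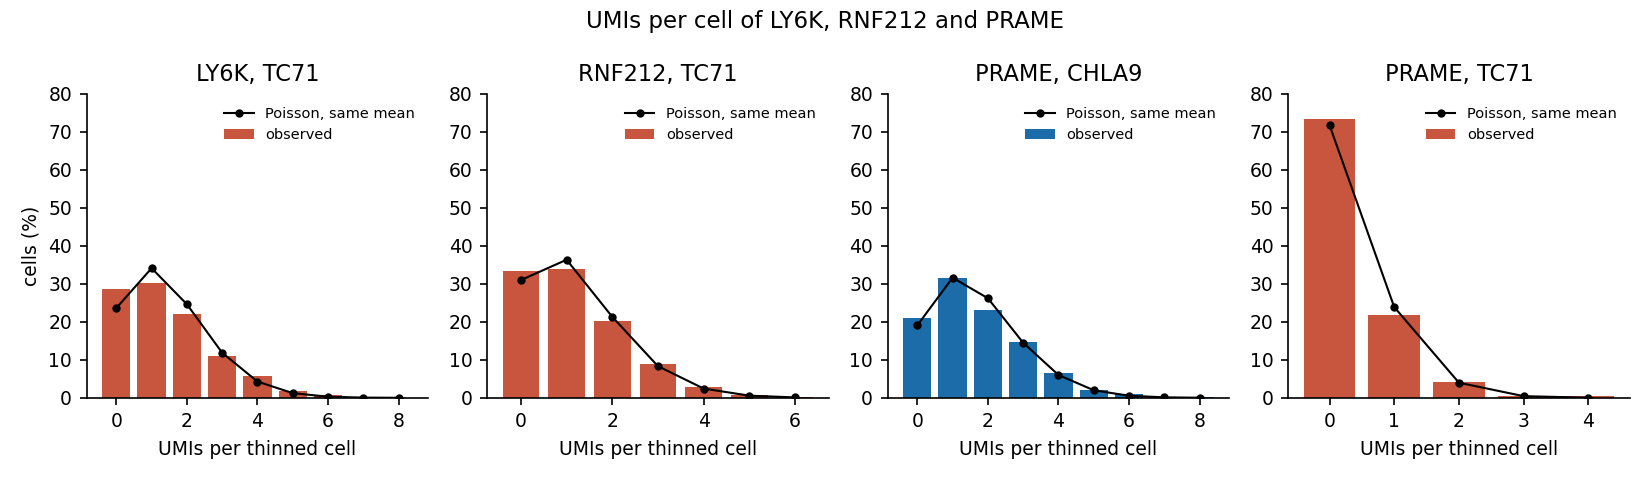
Percent of thinned cells with each number of UMIs for LY6K and RNF212 in TC71 and for PRAME in both lines (bars), with the Poisson distribution of the same mean (black line). All 4 distributions have a single peak close to the Poisson line, with somewhat more cells at 0 UMIs than the line gives (28.6% against 23.6% for LY6K).

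LY6K, RNF212 and PRAME were the members at least 4-fold apart between the lines, 3 of the 7 with at least 1 CPM in a line, where 14.9% of 13552 genes with at least 1 CPM in a line were (6.94% higher in CHLA9 and 7.93% higher in TC71). The next member, SPAG5, was 2.52-fold apart. The median log2 ratio of CHLA9 over TC71 over all tested genes was 0.20.

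DDX43, BRDT and SYCP3 were near the limit of detection. DDX43, an RNA helicase also known as HAGE, gave 28 UMIs in 25 CHLA9 cells, or 0.160 CPM (0.106 to 0.231), and 0 UMIs in TC71, where 3 UMIs would be 0.0514 CPM. CHLA9 was 3.11-fold higher against that floor of 3 counts. The exact lower bound of the ratio, from 28 against 0 UMIs, was 2.37-fold. BRDT, a testis-specific bromodomain protein needed for chromatin compaction in sperm, gave 6 UMIs in CHLA9 and 1 in TC71, a ratio of 2.001 with an interval from 0.243 to 92.0, so no difference was detectable at this depth. SYCP3, a core protein of the meiotic chromosome axis, gave 24 UMIs in CHLA9, or 0.137 CPM (0.0879 to 0.204), and 22 in TC71, or 0.377 CPM (0.236 to 0.571). SYCP3 was positive in 0.508% of CHLA9 and 1.21% of TC71 cells at full depth, and in 0.133% and 0.240% after thinning. The largest number of UMIs that any 1 cell held of these genes was 2, and 3 CHLA9 cells held 2 UMIs of DDX43. In the list of 36 genes of other tissues, the median share of positive thinned cells was 0.0222% in CHLA9 and 0% in TC71, and the highest was that of CD79A, a B cell gene, at 8.51% and 8.92%. The shares of DDX43 and SYCP3 in CHLA9 and of SYCP3 in TC71 thus lay above that list's median and within its range. Over all genes with a UMI, 43.5% were off in both lines.

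ATAD2, PBK, TTK and SPAG5 were on in both lines, as were 30.5% of all genes with a UMI. ATAD2, a bromodomain ATPase that binds newly made chromatin, stood at 350 CPM in CHLA9 (347 to 352) against 219 CPM in TC71 (216 to 223), 1.59-fold apart, with 98.8% and 97.3% of cells positive. PBK, a mitotic kinase, went the other way, at 116 CPM in CHLA9 (115 to 118) against 170 CPM in TC71 (167 to 174), with 85.5% and 96.1% positive. TTK, the spindle checkpoint kinase MPS1, was the closest between the lines, at 65.1 CPM (63.9 to 66.3) and 73.1 CPM (70.9 to 75.3), 1.12-fold apart. SPAG5, also called astrin, holds spindle poles and kinetochore fibres together. It stood at 56.7 CPM in CHLA9 (55.6 to 57.8) against 22.5 CPM in TC71 (21.3 to 23.8), 2.52-fold apart, with 70.3% and 44.9% positive. SPAG5 overlaps SGK494 and AC005726.1 on the same strand, so the counting could split reads among them.

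Cell to cell spread was taken as the variance over the mean, a ratio that tends to rise with a gene's level. By this ratio these 4 genes lay above PRAME in CHLA9, but not in every case above the germline-restricted members in TC71. In thinned CHLA9 cells the variance was 1.99 times the mean for ATAD2, 1.479 times for TTK, 1.40 times for PBK and 1.27 times for SPAG5, against 1.13 times for PRAME. In TC71 it was 1.47, 1.38, 1.16 and 1.14 times for ATAD2, TTK, PBK and SPAG5, and 1.16 times for PRAME. By this ratio PBK and SPAG5 did not exceed PRAME there, nor LY6K at 1.246 times. The means in thinned TC71 cells were unlike, at 0.226 UMIs for SPAG5, 0.333 for PRAME, 1.44 for LY6K and 1.62 for PBK. The ratios thus do not rank these genes by their spread at an equal level. In CHLA9, 1472 cells had no TTK UMI at full depth where 505 were expected from the cells' totals, and 657 had no PBK UMI where 118 were.

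Phases of the cell cycle were scored from gene lists that left the members out, so that the phase was not read from the genes it was compared with. Few cells were placed in G1, 253 of CHLA9 (5.61%) and 61 of TC71 (3.65%), while 48.6% and 60.2% were placed in G2M. Over the 53 detected genes of the G2M list, the median log2 ratio of G2M over G1 was 3.52 in CHLA9 and 2.07 in TC71.

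PBK, TTK and SPAG5 were at least 1.5-fold higher in G2M than in G1 cells of both lines, where 3.97% of 11508 genes were. TTK went from 7.84 CPM in G1 (5.97 to 10.1) to 31.7 in S and 97.0 in G2M of CHLA9, and from 18.3 (12.5 to 25.8) to 34.3 and 96.8 in TC71. Its G2M level was close to the same in both lines. SPAG5 went from 8.91 CPM in G1 (6.90 to 11.3) to 82.5 in G2M of CHLA9, 9.27-fold. In TC71 it went from 6.27 CPM (3.13 to 11.2), which rests on 11 UMIs, to 29.8, 4.76-fold. The intervals of these log2 ratios overlap, at 2.87 to 3.58 in CHLA9 and 1.41 to 3.26 in TC71. PBK went from 20.3 to 160 CPM in CHLA9, 7.88-fold, and from 98.1 to 194 CPM in TC71, 1.98-fold, the member nearest the limit on its upper side. The lines thus lay farther apart in their G1 level of PBK than in its G2M level. With phases scored by Seurat at full depth, 21.3% of CHLA9 and 11.6% of TC71 cells were in G1, and PBK fell under the limit in TC71, at 146 CPM in G1 and 207 in G2M.

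SPAG5 carries the letters TTCAAA, the reverse complement of the cell cycle homology region TTTGAA that is known from promoters of mitotic genes, from base 4 after its RefSeq start. The window is shown with these letters in capitals, and lies at chr17:28599005-28599034 on the minus strand.

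SPAG5 window: gcgcagagcaggTTCAAAcacagacggcgg

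TTTGAA was searched on both strands and is held by 15.2% of all 35116 entries, and also by each of the 3 entries of PRAME, whose level varied little with the phase. It was in none of the entries of RNF212, DDX43, BRDT and SYCP3. CCAAT, held by 34.6% of entries, was in DDX43, BRDT, SYCP3 and 1 PRAME entry, and TCCCGC, an E2F-like run held by 26.9%, was in RNF212, DDX43 and SYCP3. The E-box CACGTG, held by 7.26%, was in BRDT alone among the members. A pair of GGAA in a row, the short form of the repeat that the Ewing fusion binds, is held by 3.67% of entries and was in 1 PRAME entry. These are matches of letters and not binding sites.

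ATAD2 followed another phase. It was highest in S, at 432 CPM in CHLA9 (427 to 437), against 302 in G2M and 112 in G1. In TC71 it stood at 285 CPM in S (278 to 292), 187 in G2M and 151 in G1. Phases scored by Seurat gave the same order, with 482 CPM in S of CHLA9 and 282 in S of TC71. Its ratio of G2M over G1 was 2.68-fold in CHLA9 and 1.24-fold in TC71, the latter under the limit. When the cells with the highest and lowest shares of UMIs in G2M genes stood for the phases, the log2 ratio turned to -0.081 in CHLA9 and -0.67 in TC71.

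The germline-restricted members that were on varied less with the phase. LY6K in TC71 stood at 148 CPM in G1 (130 to 167), at 151 in S cells (145 to 156) and at 139 in G2M cells (135 to 143). RNF212 stood at 123 CPM (107 to 141), 129 (124 to 134) and 108 (104 to 111). The G2M level of both genes thus lay below their S level beyond counting error, at 0.920 times for LY6K and 0.834 times for RNF212. PRAME in CHLA9 stood at 166 CPM in G1, 157 in S (154 to 160) and 168 in G2M (166 to 171). Its G2M level there was 1.07 times its S level, the other direction. In TC71 PRAME stood at 39.9, 32.2 and 32.4 CPM. None of the 3 was 1.5-fold higher in G2M than in G1 of a line, a limit that 8.88% of genes passed in CHLA9 and 17.5% in TC71.

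**Figure D4:**
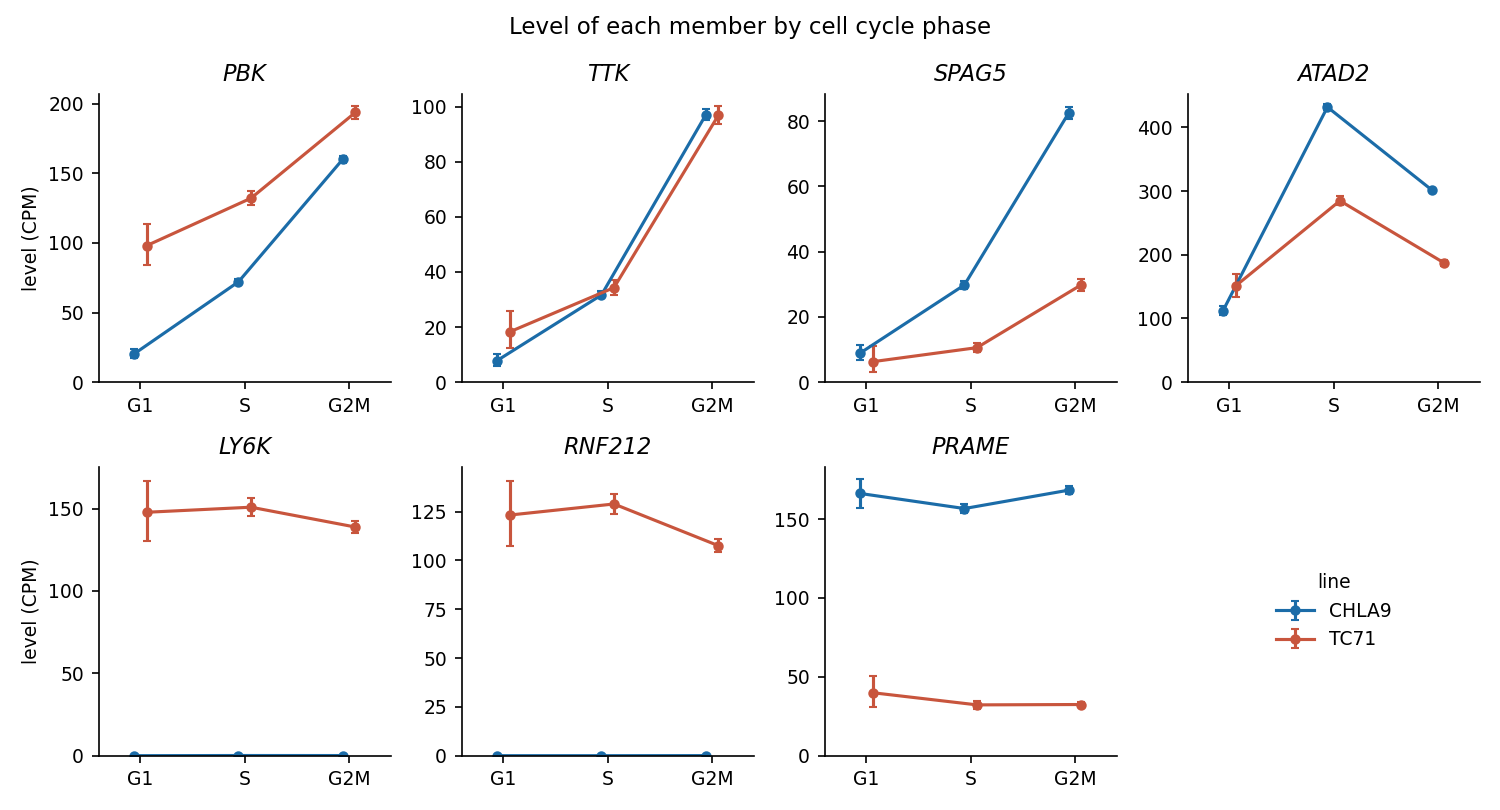
Summed level in CPM of 7 members in cells placed in G1, S and G2M, for CHLA9 (blue) and TC71 (red), with exact Poisson intervals and axes from 0. PBK, TTK and SPAG5 are highest in G2M and ATAD2 in S, while LY6K, RNF212 and PRAME vary little. The G1 points rest on 253 and 61 cells.

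Co-detection was taken as the number of thinned cells positive for both genes of a pair, over the number given by the product of their shares. Of 45 pairs, 10 in CHLA9 and 21 in TC71 had an expected number of at least 20 cells. A pair with a very common gene cannot go far above 1, and 6 of the 10 and 15 of the 21 could reach the limit, set at 25% above the expected number. TTK with SPAG5 in CHLA9 was the pair past it, with 837 cells against 631 expected, a ratio of 1.33. Of all 35604141 pairs of genes on in CHLA9 with at least 20 expected cells, 0.0724% passed the limit. This share, like that for TC71 below, also counts pairs too common to reach the limit, so it is lower than among pairs able to. The pairs next to it were PBK with SPAG5, 1202 cells against 973 and a ratio of 1.24, and PBK with TTK, 1236 against 1021 and 1.21. In TC71 no member pair passed, where 0.801% of 31553239 gene pairs did, and TTK with SPAG5 came nearest, with 169 cells against 136 and a ratio of 1.24. With the expected numbers taken within each phase and summed, TTK with SPAG5 fell to 1.10 in both lines. PBK, TTK and SPAG5 were all positive in 665 CHLA9 cells where 373 were expected, and all negative in 1081 where 723 were.

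LY6K and RNF212, the pair on in TC71 alone, were not co-detected more often than their shares give. Both were positive in 783 thinned TC71 cells against 797 expected, a ratio of 0.983. LY6K with PRAME gave 320 cells against 320 and RNF212 with PRAME 304 against 299. At full depth, 928 of 1729 TC71 cells, or 53.7%, held all 3 of these transcripts, and 18 held none. The 4 pairs of PRAME with the members on in CHLA9 gave ratios between 1.00 and 1.02. A TC71 cell held most often 4 of the 10 members after thinning (32.7% of cells), and a CHLA9 cell 3 (30.7%).

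**Figure D5:**
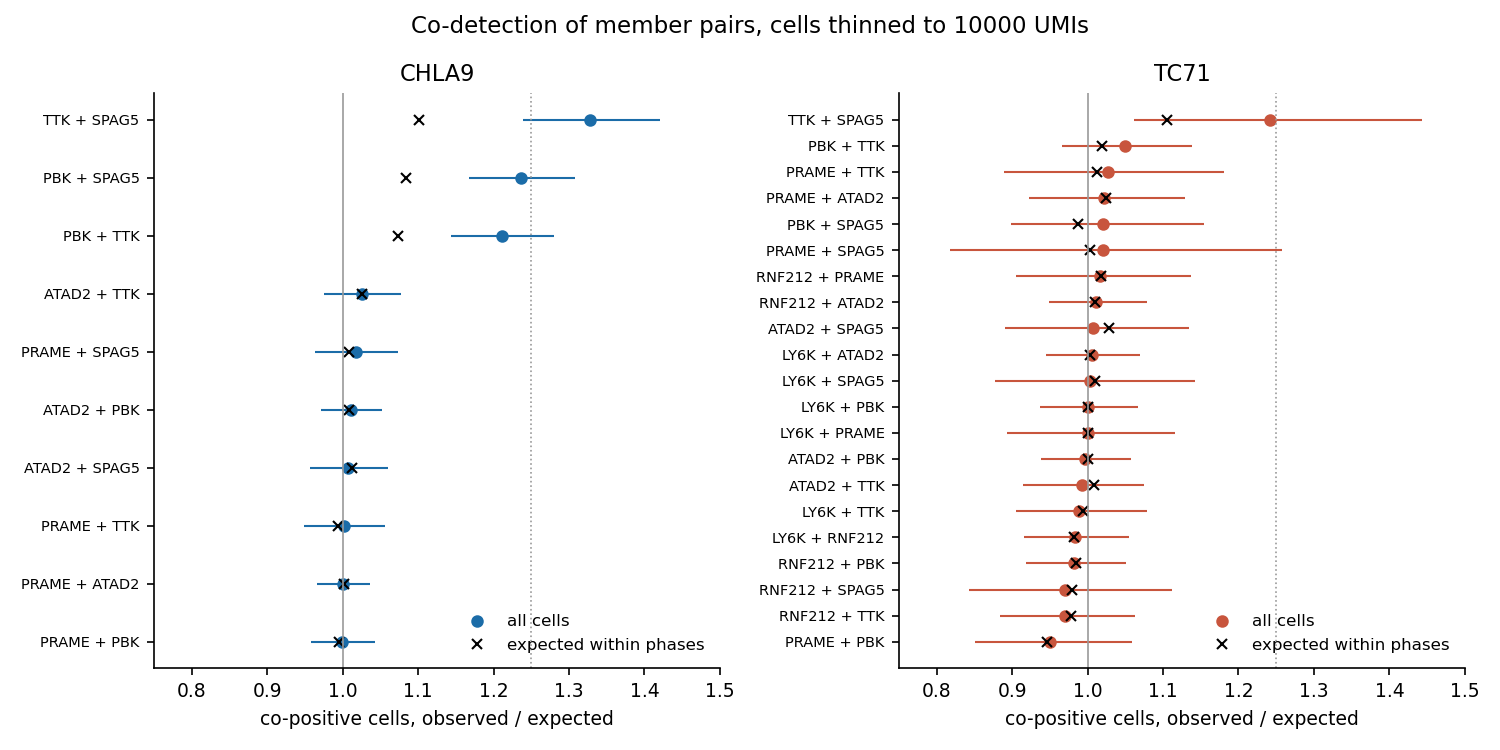
Observed over expected numbers of co-positive cells for each pair with at least 20 expected cells, in CHLA9 (10 pairs, left) and TC71 (21 pairs, right), with Poisson intervals of the observed number. Crosses use expected numbers within phases. The 3 pairs of PBK, TTK and SPAG5 lie to the right in CHLA9, as does TTK with SPAG5 in TC71 (1.24), the other pairs lie between 0.951 and 1.05, and the dotted line is the limit of 25% above the expected number.

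The genes most like each member across the cells of a line were taken by Pearson's r of log counts in thinned cells, over 8438 genes in CHLA9 and 7955 in TC71. These are descriptions, since the cells share a library and a depth. ATAD2 in CHLA9 was most like HIST1H4C (r = 0.438), HIST1H1B (0.430) and HIST1H1D (0.397), histone genes transcribed in S phase, and in TC71 most like MCM4 (0.260), a subunit of the replicative helicase. TTK was most like TOP2A (0.480) and ASPM (0.472) in CHLA9 and like ASPM (0.402) and CENPF (0.335) in TC71. PBK in CHLA9 was most like ASPM (0.436) and SPAG5 likewise (0.397), and the 2 were led in TC71 by CCNB1 (0.198) and AURKA (0.206). ASPM, CENPF, CCNB1 and AURKA all serve mitosis. RNF212 and PRAME had no gene above 0.103 in a line. LY6K was most like RPL8 (0.192), a ribosomal protein gene that lies on chromosome 8 as LY6K does.

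Around LY6K, at chr8:142700111-142705127 on the plus strand (GENCODE 44, GRCh38), none of the 5 annotated genes on either side was 4-fold apart with at least 1 CPM. ARC stood at 5.81 CPM in CHLA9 and 1.77 in TC71, JRK at 27.3 and 10.5, and THEM6 at 11.5 and 6.80. The family members SLURP1 and LYPD2 had 0 UMIs in both lines. The antisense neighbour AC108002.1, which overlaps LY6K, had 0.548 CPM in TC71 (32 UMIs) and 0.109 CPM in CHLA9 (19 UMIs), a log2 ratio of -2.34 in the direction of LY6K but under 1 CPM. Around RNF212, at chr4:1056250-1113564 on the minus strand, the transcript AC092535.1 had the same direction, at 5.33 CPM in TC71 (311 UMIs) and 2 UMIs in CHLA9, while IDUA was higher in CHLA9, at 1.12 against 0.137 CPM. FGFRL1 stood at 19.4 and 15.5 CPM. The median log2 ratio over 278 genes of chromosome 8 was -0.05 and over 281 genes of chromosome 4 it was 0.17, beside 0.16 over all 7510 genes at 10 CPM or more.

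Other germline lists were set beside the members. Of 58 X-linked cancer-testis genes none was on, and 53 were off in both lines, beside 43.5% of all genes with a UMI. Of the 58, 28 had 0 UMIs in both lines. Some are named as close copies, such as CTAG1A with CTAG1B, and reads that fit more than 1 copy may go uncounted. Whether this lowered their counts was not tested. SAGE1 came nearest to on, with 571 UMIs and 9.78 CPM in TC71, in 9.34% of thinned cells, and 0 UMIs in CHLA9. MAGEA12, of the MAGE family, had 68 UMIs in TC71 and 0 in CHLA9. A second list of 89 matched cancer-testis genes, mostly autosomal but with X-linked genes such as PLAC1 and PASD1 in it, had 15 genes on in CHLA9 and 17 in TC71. On in both were 15 of the 89, beside 30.5% of all genes with a UMI, and 23 of the 89 had 0 UMIs in both lines. Of its 29 genes with at least 1 CPM in a line, 2 were at least 4-fold higher in CHLA9 and 7 in TC71, beside 6.94% and 7.93% of all such genes. CTCFL, the germline paralog of CTCF, stood at 2.36 CPM in CHLA9 and 112 in TC71, in 2.42% and 65.6% of thinned cells. LDHC, the sperm lactate dehydrogenase, went the other way, at 3.99 and 0.0514 CPM. Among the genes with the highest levels in this list were SPAG9, a scaffold of kinase signalling (105 and 156 CPM), and the mitotic genes KIF2C (154 and 79.0 CPM) and NUF2 (132 and 109 CPM).

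Among 47 matched meiotic genes 9 were on in CHLA9 and 10 in TC71. On in both were 8 of the 47, beside 30.5% of all genes with a UMI, and 5 of the 47 had 0 UMIs in both lines. SMC1B, the meiotic cohesin subunit, repeated the pattern of LY6K and RNF212, with 9 UMIs in CHLA9 and 4611 in TC71, or 0.0514 and 79.0 CPM, and 52.2% of thinned TC71 cells positive. REC8, the meiotic kleisin of the same cohesin complex, had the opposite pattern, at 39.4 CPM and 32.5% of thinned cells in CHLA9 and 0.446 CPM in TC71. TEX15 and MND1 were on in both lines, at 73.8 and 79.6 CPM and at 60.2 and 55.8 CPM. SYCP1 and SYCP2, which are parts of the synaptonemal complex as SYCP3 is, went opposite ways. SYCP1 stood at 0.246 CPM in CHLA9 and 1.27 in TC71, and SYCP2 at 1.18 CPM in CHLA9 and 0.377 in TC71. Of 37 genes of the piRNA pathway and germ cell identity, 3 were on in CHLA9, 2 in TC71 and 1 in both, and 9 had 0 UMIs in both lines. HENMT1, the piRNA methyltransferase, stood at 1.06 and 19.3 CPM and LIN28B at 14.1 and 54.2 CPM.

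Of 26 silencers of germline genes, 25 were on in CHLA9 and 23 in TC71. On in both lines were 23 of the 26, beside 30.5% of all genes with a UMI. At least 4-fold higher in CHLA9 were 2 of the 26, near the share of 6.94% over all 13552 genes with at least 1 CPM in a line. KDM5C, a histone H3K4 demethylase, gave 9467 UMIs in CHLA9 and 4 in TC71, or 54.1 and 0.0685 CPM. EZH2, which methylates H3K27, stood at 442 and 95.6 CPM. DNMT1, the maintenance DNA methyltransferase, stood at 376 and 282 CPM, and E2F6, which represses germline genes, at 41.1 and 38.5 CPM. What part any of these has in the pattern of the members was not tested.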

How the data were processed

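UMI counts per gene and barcode were deposited by the authors as raw counts with no normalization, 1 library per line. The submitters' processing notes name Cell Ranger 3.1.0 and hg38. The members, lists and rules were chosen with earlier results of these data known. The limits on cells were 5000 UMIs, 2000 genes and 15% mitochondrial UMIs. No doublet caller was run, and leaving out the top 5% of cells by UMIs was an alternative. Thinning to 10000 UMIs per cell used numpy 2.4.6 (seed 1), which left out 14 CHLA9 and 59 TC71 cells. Phases were scored with scanpy 1.11.5 on thinned cells, with genes in at least 10 cells and lists without the members; Seurat 5.3.0 in R 4.3.3 was an alternative. Intervals are exact Poisson (levels) or Clopper-Pearson (shares) from scipy 1.17.1. Those of ratios are exact intervals of the ratio of Poisson rates, conditional on the sum of both counts. All cover counting error only. A count of 0 was set to 3 UMIs in ratios. The limit for a count of 0 is 3 counts throughout. Expected cells without a UMI used each cell's total and the pooled level. The like genes were, for each member on in a line, the 3 with the highest r among genes on in that line. Genes of other lists were named by level (5 highest per line) or by a 4-fold difference with at least 1 CPM (up to 5 per direction). CD99, CD79A, PLAC1, PASD1, DNMT1, E2F6, CUL2, DDX4, DAZL, PRM1, PRM2, TNP1, PIWIL1 and MAEL were named as markers or for their role, with their values known. Positions come from GENCODE 44 by gene identifier and promoters from RefSeq, where 6 of the 10 members had an entry. Tables were handled with pandas 2.3.3 and figures drawn with matplotlib 3.10.9. The steps were tested on simulated data. No test between lines was made.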

Additional observations from a re-analysis of the deposited data

How the results depend on the processing

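The 2 members on in TC71 alone were LY6K and RNF212 under all 9 alternatives of filter, doublets, depth, seed and limit. The calls of some other members did change. Thinned to 1000 UMIs, PRAME in TC71 (2.54%), TTK (5.39% in CHLA9, 8.10% in TC71) and SPAG5 (4.60% and 2.68%) fell under 10%. With on set at 20%, SPAG5 in TC71 (19.04%) was not on. With no thinning, SYCP3 in TC71 (1.21%) was not off. The 3 members 4-fold apart were LY6K, RNF212 and PRAME under all 7 alternatives of filter, doublets, normalization and low counts. Size factors from the median of gene ratios shifted all log2 ratios by 0.18. Members 1.5-fold higher in G2M were 3 in the main scoring, 2 by Seurat (TTK and SPAG5) and 4 after leaving out outlying cells or cells over 10% mitochondrial UMIs (with ATAD2). ATAD2 had a log2 ratio of -0.081 in CHLA9 and -0.67 in TC71, where the main values were 1.42 and 0.31, when the cells with the highest and lowest shares of UMIs in G2M genes stood for G2M and G1, and the cause was not tested. Co-detected pairs numbered 1 in CHLA9 and 0 in TC71, and 3 and 1 when thinned to 5000 UMIs, while no thinning or expected numbers within phases gave 0 in CHLA9. Of the single values, 46 of 180 shares of cells, 8 of 49 differences between lines, 21 of 96 phase ratios and 11 of 49 co-detection ratios moved beyond their interval. No paired analysis was possible because there was no second library of either line to pair. Depth limits DDX43, BRDT and SYCP3, with 1 to 28 UMIs where detected.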

Other observations

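LY6K in TC71 had 9 genes of chromosome 8 among the 50 genes most like it across cells, where 3.73% of the 7955 genes compared lie on that chromosome. For the other members on in TC71, the number of the 50 from their own chromosome was between 0 and 5 genes. ATAD2 had the 5 and PBK had 1, and both also lie on chromosome 8. Among the 50 genes of LY6K, 11 were ribosomal protein genes. More of the 50 lay on chromosome 19 than on chromosome 8, 17 genes, where 470 of the 7955 genes compared lie on chromosome 19. The values of r were low, the count was looked at after the values were seen, and no test was made.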
